A study of Homo sapiens with 6 samples.

Results

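The ERBB receptors and their EGF-type ligands were followed in OVCAR-3 ovarian cancer cells with and without an shRNA against COX-1. The 10 genes described are the receptor genes *EGFR*, *ERBB2*, *ERBB3* and *ERBB4* and the ligand genes *AREG*, *EREG*, *HBEGF*, *TGFA*, *BTC* and *NRG1*, taken from the count table by their symbols, and all 10 of them were among its 34811 genes. In OV3/COX1KD cells all 4 receptor genes were up-regulated, as were 25.8% of all tested genes, with *EGFR* 3.97-fold above the control. Among the ligands, *BTC* rose 3.57-fold and *NRG1* 1.30-fold, whereas *TGFA* fell to a level 1.86-fold below the control.

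The ERBB receptors are cell surface tyrosine kinases that pair with each other when a ligand binds. ERBB2 has no known ligand of its own and serves as a partner, and ERBB3 has very weak kinase activity and signals mainly through its partners. The ligands are made as membrane-anchored precursors, released by ADAM proteases, and fall into groups by the receptors they bind: EGF, TGFA, AREG and EPGN bind EGFR, BTC, HBEGF and EREG bind EGFR and ERBB4, NRG1 and NRG2 bind ERBB3 and ERBB4, and NRG3 and NRG4 bind ERBB4. The receptors signal to the RAS-MAPK and PI3K-AKT pathways, and EGFR and ERBB2 are long-studied oncogenes of epithelial tumors, ovarian carcinoma included.

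OVCAR-3 is an established human ovarian carcinoma cell line. Both cell lines were stable transfectants grown in RPMI-1640 with 10% serum, OV3/SCR with a scrambled pRS shRNA HuSH-29 plasmid and OV3/COX1KD with a COX-1 shRNA on the same plasmid, and 3 libraries were made from each. The libraries came from separate passages of 1 clone per cell line, so that knockdown and clone cannot be told apart and the p-values measure the spread between passages of these clones. Library totals ranged from 25291505 to 27391538 counts. The targeted gene, *PTGS1*, was lower in every OV3/COX1KD library, at 18.8 ± 0.639 TMM-scaled CPM (SD, n = 3) against 25.6 ± 1.02 (SD, n = 3), a log2 fold change of -0.45. All 8 ovarian epithelial markers were tested. At an edgeR FDR under 0.01, 6 were higher and 2 lower in OV3/COX1KD, as were 25.8% and 22.1% of all tested genes. The lower ones were *PAX8* (log2 fold change -0.76, edgeR FDR = 4.29e-13) and *KRT7* (-0.14, edgeR FDR = 0.000102). The 8 markers summed to 4657 to 4687 CPM in OV3/SCR and 6005 to 6182 in OV3/COX1KD libraries. *KRT8* was the largest of them, with means of 1502 CPM in OV3/SCR and 2360 CPM in OV3/COX1KD. For 12 markers of leukocytes, endothelium and fibroblasts, of which 11 were in the table, the sum was 12.6 to 13.2 CPM in OV3/SCR and 8.52 to 9.26 in OV3/COX1KD libraries. Most of both sums was *COL1A1*, with means of 10.1 CPM in OV3/SCR and 5.93 CPM in OV3/COX1KD. Of the 12 markers, 3 passed the filter on low counts, and 1 of them (*COL1A1*) was lower in OV3/COX1KD. *CDH5* and *LUM* were at 3 counts or fewer in all libraries. The part of these markers in the results was not tested.

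Levels are given as CPM, the counts of a gene relative to the TMM-scaled size of its library. The cell lines were compared with edgeR's quasi-likelihood test over the 17309 genes that passed its filter on low counts, and FDR is the edgeR p-value after Benjamini-Hochberg adjustment over those genes. Of all tested genes, 47.9% differed at an FDR under 0.01 (25.8% higher and 22.1% lower in OV3/COX1KD), and 3.92% also differed by more than 2.5-fold (1.58% higher and 2.34% lower). With total count scaling, the split of 4473 higher and 3820 lower genes changed to 3466 and 4978. Of the 10 genes, 9 passed the filter, and 7 of these 9 differed at an FDR under 0.01, 6 of them higher and 1 lower. *EGFR* and *BTC* were higher by more than 2.5-fold, which 1.58% of all tested genes were, and no member was lower by that much (2.34% of all tested genes). In these 7 genes every OV3/COX1KD library lay outside the range of the OV3/SCR libraries, as it did for 63.2% of all tested genes.

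**Figure D1:**
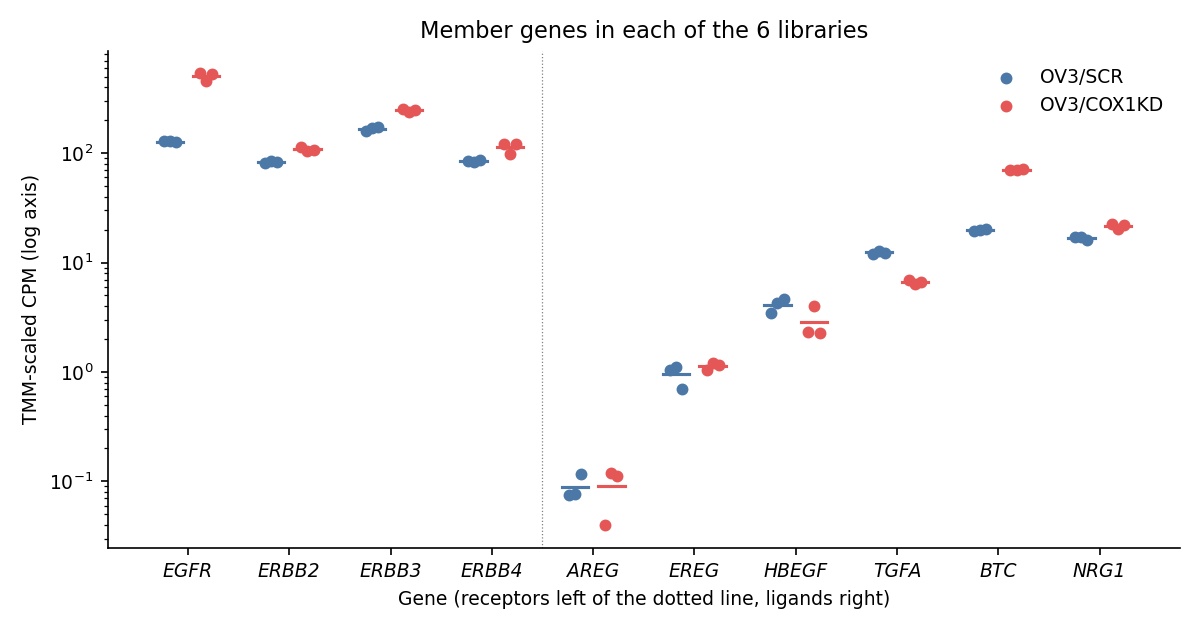
TMM-scaled CPM (log axis) of the 10 genes, with each point a library and each bar the mean of 3 libraries of OV3/SCR (blue) or OV3/COX1KD (red). *EGFR* and *BTC* show the widest separation, *TGFA* is the ligand with lower OV3/COX1KD levels in every library, and *AREG* lies near 0.1 CPM in both cell lines.

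The sequences of 3 loci bear on these measurements. The first is an *AREG* coding exon, shown because GRCh37, the build of hg19, holds a near-identical second copy of the gene, *AREGB* (chromosome 4 from 75480629 to 75490486), beside *AREG* (ENSG00000109321, chromosome 4 from 75310853 to 75320722). Of the 1348 windows of 50 bases along the *AREG* exons, 97.6% occurred letter for letter in the *AREGB* locus with 1000 bases on each side. Of the 5 coding exons of the canonical *AREG* transcript, 4 were identical in both places, among them this exon of 153 bases, which reads the same at chr4:75316097-75316249 and chr4:75485854-75486006 on the plus strand of GRCh37.
AREG coding exon: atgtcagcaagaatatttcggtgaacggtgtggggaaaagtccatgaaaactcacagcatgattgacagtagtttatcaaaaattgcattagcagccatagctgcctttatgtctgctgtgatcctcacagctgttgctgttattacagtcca
A read from such a stretch has no single place in the genome. How these reads were counted is not given in the sources used here, *AREGB* was not analysed here, and the counts of *AREG* are therefore uncertain.

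The other sequences are the 250 bases upstream of the start sites of *EGFR* and *BTC*, the members with the largest rises, as RefSeq gives them on GRCh38.p14, each on its gene's strand.
EGFR upstream (chr7:55018767-55019016, plus strand): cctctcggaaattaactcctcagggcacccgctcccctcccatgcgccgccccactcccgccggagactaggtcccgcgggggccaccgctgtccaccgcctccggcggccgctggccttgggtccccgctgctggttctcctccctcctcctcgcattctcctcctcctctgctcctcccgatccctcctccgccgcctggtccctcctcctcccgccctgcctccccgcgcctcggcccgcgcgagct
BTC upstream (chr4:74794524-74794773, minus strand): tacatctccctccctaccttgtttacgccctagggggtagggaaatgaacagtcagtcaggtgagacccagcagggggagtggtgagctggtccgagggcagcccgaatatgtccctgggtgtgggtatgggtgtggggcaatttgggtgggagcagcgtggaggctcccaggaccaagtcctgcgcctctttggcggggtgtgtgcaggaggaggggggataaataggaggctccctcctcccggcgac
Both windows were searched on both strands, over 300 bases that also include the first 50 of the transcript. The motifs were the cAMP response element TGACGTCA and the AP-1 pattern TGANTCA, with any base allowed at N, and capitals would mark a match. Neither window held either motif. The *EGFR* window was 75.3% G and C and the *BTC* window 63.0%, against a median of 58.7% over 35116 promoter windows. Windows of 8 of the 10 genes (10 windows) were searched. No window of *ERBB3* or *NRG1* was among those searched, so the motifs were not tested for these genes. The cAMP response element occurred in the *AREG* window, and in 1.85% of all windows. The AP-1 pattern was matched in the *ERBB2* window, by TGATTCA. It was matched 2 times in a second *EGFR* window inside the gene (chr7:55109589-55109888), by TGAGTCA and TGACTCA. Of all windows, 7.71% held a match to the pattern with any base at N.

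*EGFR* (ENSG00000146648, chromosome 7 of GRCh37 from 55086710 to 55279321), the receptor for EGF itself, was counted 3446, 3342 and 3246 times in the 3 OV3/SCR libraries and 13496, 11449 and 14054 times in the 3 OV3/COX1KD libraries. Its level rose from 128 ± 1.91 CPM (SD, n = 3) to 507 ± 43.5 CPM (SD, n = 3), a log2 fold change of 1.99 (SE 0.046, FDR = 2.07e-17). In the order of estimated rises *EGFR* was number 76 of the 17309 tested genes. OV3/COX1KD replicate 2 had the lowest of the raised levels, 457 CPM against 536 and 528 in replicates 1 and 3, and remained far above the control range of 126 to 129 CPM. An antisense gene, *EGFR-AS1*, shares 1.2% of the exon length of *EGFR*, and had a log2 fold change of -0.0049 (FDR = 0.993).

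*ERBB3* (ENSG00000065361, chromosome 12 from 56470583 to 56497289), the main receptor of neuregulins together with ERBB4, had 160, 171 and 172 CPM in OV3/SCR and 253, 235 and 250 CPM in OV3/COX1KD libraries. The log2 fold change was 0.55 (SE 0.036, FDR = 8.34e-11). *ERBB2* (ENSG00000141736, chromosome 17 from 37844167 to 37886679), which encodes HER2, had 80.5, 84.7 and 82.9 CPM in OV3/SCR and 114, 105 and 107 CPM in OV3/COX1KD libraries, which is 0.40 on the log2 scale (SE 0.038, FDR = 2.41e-08). *MIEN1* and *PGAP3*, on the opposite strand, share 5.5% and 1.4% of its exon length. Both also rose, by 0.40 (FDR = 7.14e-05) and 0.44 (FDR = 3.24e-06) on the log2 scale, close to *ERBB2* itself, and since the strand setting of the counting is not given in the sources used here, reads from the shared stretches cannot be told apart.

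*ERBB4* (ENSG00000178568, chromosome 2 from 212240442 to 213403565), a receptor of neuregulins as well as of BTC, HBEGF and EREG, had 85.3, 83.6 and 86.0 CPM in OV3/SCR and 121, 98.7 and 122 CPM in OV3/COX1KD libraries. It was up-regulated with a log2 fold change of 0.42 (SE 0.057, FDR = 2.68e-06). As for *EGFR*, *ERBB3* and *ERBB2*, replicate 2 had the lowest level of the OV3/COX1KD libraries, and without it the *ERBB4* estimate was 0.52. None of the 4 receptor genes had overlapping values between the cell lines, and neither did 63.2% of all tested genes. Their median log2 fold change was 0.49, beside -0.0087 over all tested genes.

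Receptor genes were also set against each other within each library. The count ratio of *EGFR* to *ERBB3* lay between 0.729 and 0.807 in OV3/SCR and between 1.94 and 2.12 in OV3/COX1KD libraries. Against *ERBB2*, *EGFR* had 1.51 to 1.61 times the counts in OV3/SCR and 4.34 to 4.91 times in OV3/COX1KD libraries. Against *ERBB4* the ratio was 1.46 to 1.53 in OV3/SCR and 4.31 to 4.63 in OV3/COX1KD libraries. These ratios and those of *BTC* to *TGFA* and *NRG1* below were 5 comparisons, none with overlapping values. Each gave p = 0.1 in a two-sided exact permutation test, before or after Benjamini-Hochberg adjustment over the 5. That is the smallest p that 3 against 3 libraries allow. Each ratio sets *EGFR* or *BTC*, the members with the largest rises, over a member that rose less or fell. The separation therefore restates the changes of the single genes, and these p-values add no support to them.

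**Figure D2:**
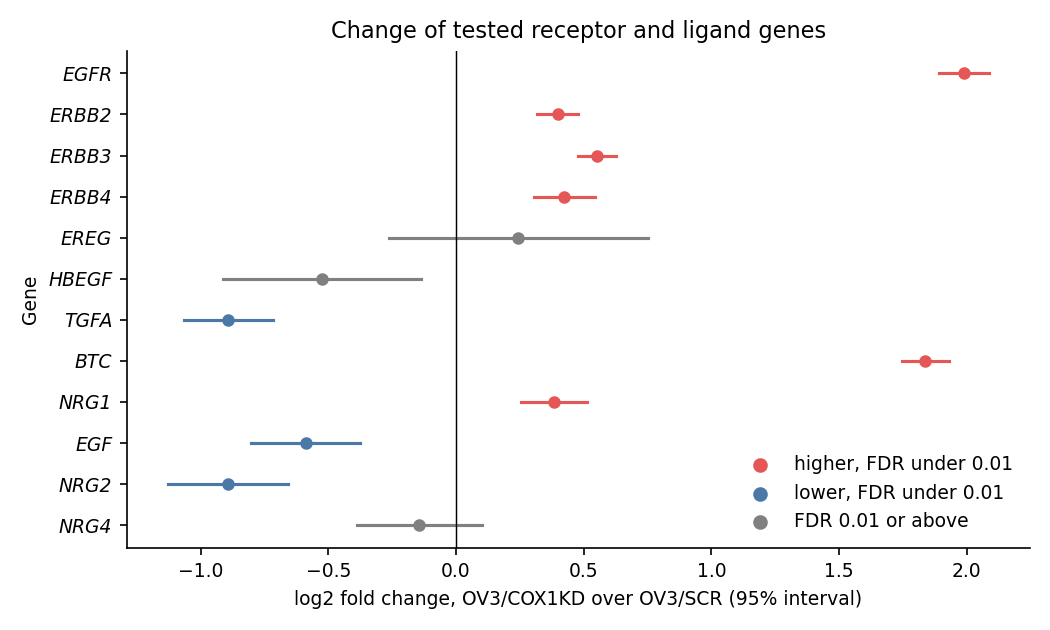
Log2 fold change of OV3/COX1KD over OV3/SCR with its 95% interval for the tested receptor and ligand genes, colored by direction where the FDR was under 0.01. All 4 receptors lie to the right of 0, while the ligands spread from -0.89 for *NRG2* and *TGFA* to 1.84 for *BTC*.

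*BTC* (ENSG00000174808, chromosome 4 from 75669969 to 75719733), which encodes betacellulin, was counted 517, 515 and 519 times in the 3 OV3/SCR libraries and 1771, 1751 and 1902 times in the 3 OV3/COX1KD libraries. Its level rose from 19.7 ± 0.341 CPM (SD, n = 3) to 70.5 ± 0.773 CPM (SD, n = 3), with a log2 fold change of 1.84 (SE 0.044, FDR = 2.93e-17). It was number 103 among the estimated rises of all tested genes. Replicates of *BTC* lay closer together than those of *EGFR*, with no OV3/COX1KD library apart.

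The other ligands that bind both EGFR and ERBB4 lay below *BTC* in level and were not called. *HBEGF* (ENSG00000113070, chromosome 5 from 139712428 to 139726188), the heparin-binding ligand, had 92, 111 and 121 counts in OV3/SCR and 58, 101 and 61 counts in OV3/COX1KD libraries. In CPM, OV3/COX1KD replicates 1 and 3 (2.30 and 2.29) lay below all OV3/SCR libraries (3.45 to 4.68), while replicate 2 (4.03) lay among them. The log2 fold change of *HBEGF* was -0.53 (95% interval -0.91 to -0.14, FDR = 0.0203) by edgeR, and without OV3/COX1KD replicate 2 it was -0.84 (FDR = 6.41e-06). *EREG* (ENSG00000124882, chromosome 4 from 75230862 to 75254466), which encodes epiregulin, had 28, 29 and 18 counts in OV3/SCR and 26, 30 and 31 in OV3/COX1KD libraries, and the values overlapped. Its log2 fold change of 0.24 had a 95% interval from -0.26 to 0.75 (FDR = 0.403 by edgeR), so a change of either sign within that interval was not detectable at this depth.

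Of the ligands that bind EGFR alone, *TGFA* (ENSG00000163235, chromosome 2 from 70674416 to 70781325), which encodes TGF-alpha, had 319, 334 and 318 counts in OV3/SCR and 176, 158 and 178 counts in OV3/COX1KD libraries. Its level fell from 12.4 ± 0.428 CPM (SD, n = 3) to 6.66 ± 0.344 CPM (SD, n = 3), a log2 fold change of -0.89 (SE 0.083, FDR = 1.64e-08), and all OV3/COX1KD libraries were below all OV3/SCR libraries. *EGF* (ENSG00000138798), which encodes the founding ligand of the family and is not one of the 10 genes, also fell, from 204, 193 and 172 counts to 124, 121 and 125 (log2 fold change -0.59, FDR = 5.51e-05). *AREG*, which encodes amphiregulin, had 2, 2 and 3 counts in OV3/SCR and 1, 3 and 3 in OV3/COX1KD libraries. No library exceeded 3 counts, the floor used here and a level of 0.113 to 0.120 CPM, so *AREG* was not tested and no fold change is given (edgeR FDR = 0.987 when no gene was filtered out). *EPGN*, the gene for epigen, was likewise at 1 to 3 counts in all libraries. The floor covers counting error only, for reads amplified by PCR, whereas the 95% intervals come from the edgeR fit and include the spread between libraries.

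*NRG1* (ENSG00000157168, chromosome 8 from 31496738 to 32713184), which encodes the heregulin type of neuregulins for ERBB3 and ERBB4, had 454, 442 and 413 counts in OV3/SCR and 569, 512 and 590 counts in OV3/COX1KD libraries. It was up-regulated from 16.7 ± 0.590 CPM (SD, n = 3) to 21.7 ± 1.15 CPM (SD, n = 3), a log2 fold change of 0.38 (SE 0.062, FDR = 2.40e-05), with no overlap between the cell lines. A lincRNA gene on the same strand, RP11-1002K11.1, shares 8.6% of the *NRG1* exon length. It (ENSG00000272327) also rose, by 0.44 on the log2 scale (FDR = 0.00295), and reads from the shared stretch cannot be told apart. *NRG2* went the other way, from 166, 166 and 179 counts to 93, 83 and 93 (log2 fold change -0.89, FDR = 1.11e-06). *NRG4* had 160, 189 and 176 counts in OV3/SCR and 135, 179 and 151 in OV3/COX1KD libraries and was not called (log2 fold change -0.14, FDR = 0.303), and *NRG3* had a single count in 1 of the 6 libraries. Of the 5 EGF-type ligand genes outside the 10, 3 were thus tested and 2 fell, as did 22.1% of all tested genes. The median log2 fold change of the 3, -0.59, is the value of *EGF*. Beside *TGFA*, *BTC* had 1.54 to 1.63 times the counts in OV3/SCR and 10.1 to 11.1 times in OV3/COX1KD libraries, and beside *NRG1*, 1.14 to 1.26 and 3.11 to 3.42 times.

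Levels of different genes were compared per kb of exon, after dividing CPM by the merged exon length of the gene. In OV3/SCR cells *ERBB3* was highest, at 14.3 ± 0.571 CPM per kb (SD, n = 3), followed by *ERBB2* (8.02 ± 0.206) and *EGFR* (8.01 ± 0.120), whose ranges overlapped, then by *BTC* (7.44 ± 0.129), *ERBB4* (6.53 ± 0.0938), *TGFA* (2.51 ± 0.0872), *HBEGF* (1.38 ± 0.209), *NRG1* (0.779 ± 0.0276), *EREG* (0.167 ± 0.0393) and *AREG*. In OV3/COX1KD cells the order was *EGFR* (31.8 ± 2.73 CPM per kb), *BTC* (26.6 ± 0.291), *ERBB3* (21.0 ± 0.802), *ERBB2* (10.6 ± 0.455), *ERBB4* (8.75 ± 1.02), *TGFA* (1.35 ± 0.0701), *NRG1* (1.02 ± 0.0537), *HBEGF* (0.962 ± 0.335), *EREG* (0.198 ± 0.0152) and *AREG* (all SD, n = 3), and of the neighbors only *NRG1* and *HBEGF* overlapped. With the length of the canonical transcript in place of all exons, the OV3/SCR order was unchanged, and in OV3/COX1KD cells *ERBB3* stood above *BTC* and *NRG1* above *TGFA*. In OV3/SCR cells *ERBB2* (18.15 ± 0.466 CPM per kb) and *EGFR* (12.89 ± 0.193) then lay apart (SD, n = 3). Whether *ERBB2* and *EGFR* were level in control cells thus depends on the length used.

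*EGFR* accounted in control cells for 21.7% ± 0.654 (SD, n = 3) of the summed receptor level per kb, and in knockdown cells for 44.1% ± 0.844 (SD, n = 3). The share of *ERBB3* was 38.9% ± 0.884 in OV3/SCR and 29.2% ± 0.895 in OV3/COX1KD cells (SD, n = 3), although its own level had risen. Over 11 ligand genes, the 6 above with *EGF*, *EPGN*, *NRG2*, *NRG3* and *NRG4*, the share of *BTC* was 46.4% ± 0.754 (SD, n = 3) in control and 81.1% ± 1.10 (SD, n = 3) in knockdown cells. That of *TGFA* was 15.7% ± 0.330 and 4.13% ± 0.244 (SD, n = 3). The summed receptor level per kb was 36.9 ± 0.647 and 72.1 ± 4.88 CPM per kb, and the summed ligand level 16.1 ± 0.476 and 32.8 ± 0.253 (SD, n = 3), where the ligand sum counts *AREG* at its uncertain level.

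**Figure D3:**
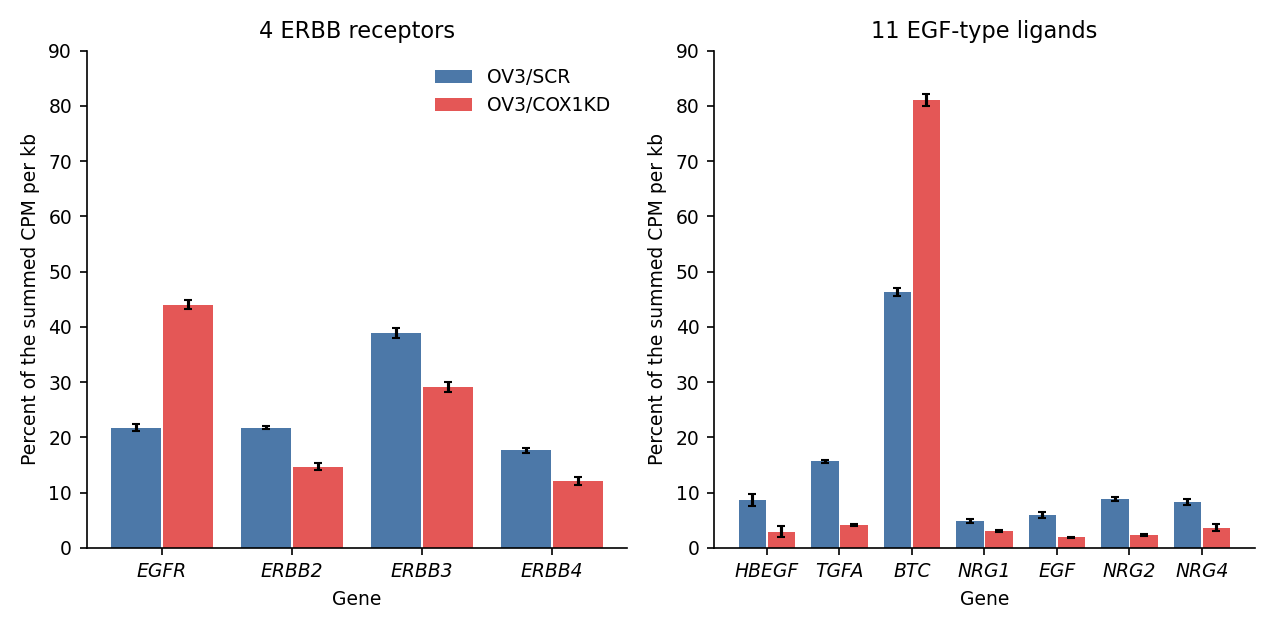
Percent of the summed CPM per kb held by each receptor gene (left) and by each ligand gene above 2% in either cell line (right), as the mean of 3 libraries with SD bars in OV3/SCR (blue) and OV3/COX1KD (red). *EGFR* moves from 21.7% to 44.1% of the receptors and *BTC* from 46.4% to 81.1% of the ligands.

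The genes beside each member were also compared, since DNA copy number was not measured and each cell line was 1 clone. Within 1 Mb of *EGFR*, 14 other tested genes had a median log2 fold change of 0.011, from -0.67 to 0.97, and none of them differed by more than 2.5-fold. Around *BTC* the 12 tested neighbors had a median of 0.021, with *PARM1* the highest at 1.09. Around *TGFA* it was -0.024 over 23 neighbors, around *ERBB2* 0.027 over 36, around *ERBB3* 0.043 over 61 and around *NRG1* 0.094 over 14. The nearest genes to *ERBB2* were not flat, however. Of the 5 tested genes nearest to it by gene center, *MIEN1* (0.40), *PGAP3* (0.44) and *GRB7* (0.76) rose, while *TCAP* (-0.62, FDR = 0.0554) and *STARD3* (-0.11, FDR = 0.154) were not called. Farther out, *ORMDL3*, with its center at 215 kb, rose by 0.60 on the log2 scale (FDR = 1.81e-08), *GSDMB* at 203 kb had 0.40 (FDR = 0.0210) and was not called, and *CDK12*, at 195 kb on the other side, fell by 0.18 on the log2 scale (FDR = 0.00337). The part of copy number in the change of *ERBB2* was not tested. *ERBB4* had 6 tested neighbors with a median of 0.32, near its own 0.42, and over 14 genes within 2 Mb the median was 0.049.

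The ligand genes *EREG*, *AREG* and *BTC* lie in 1 stretch of chromosome 4 beside the CXC chemokine genes, and the genes of that stretch differed in direction. Of the 9 tested genes within 1 Mb of *EREG*, 6 were lower and 2 higher in OV3/COX1KD at an FDR under 0.01, with a median log2 fold change of -0.98. Over all tested genes the shares were 22.1% lower and 25.8% higher. *IL8* (-4.27), *AFP* (-2.585), *CXCL3* (-1.87) and *CXCL1* (-1.65) were among the lower genes. *BTC* (1.84) and *PARM1* (1.09) were the higher ones, and all of these were named here after their values were seen. *HBEGF* had 33 tested neighbors with a median log2 fold change of -0.031, and the lowest of them was the other ligand gene of that stretch, *NRG2*.

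**Figure D4:**
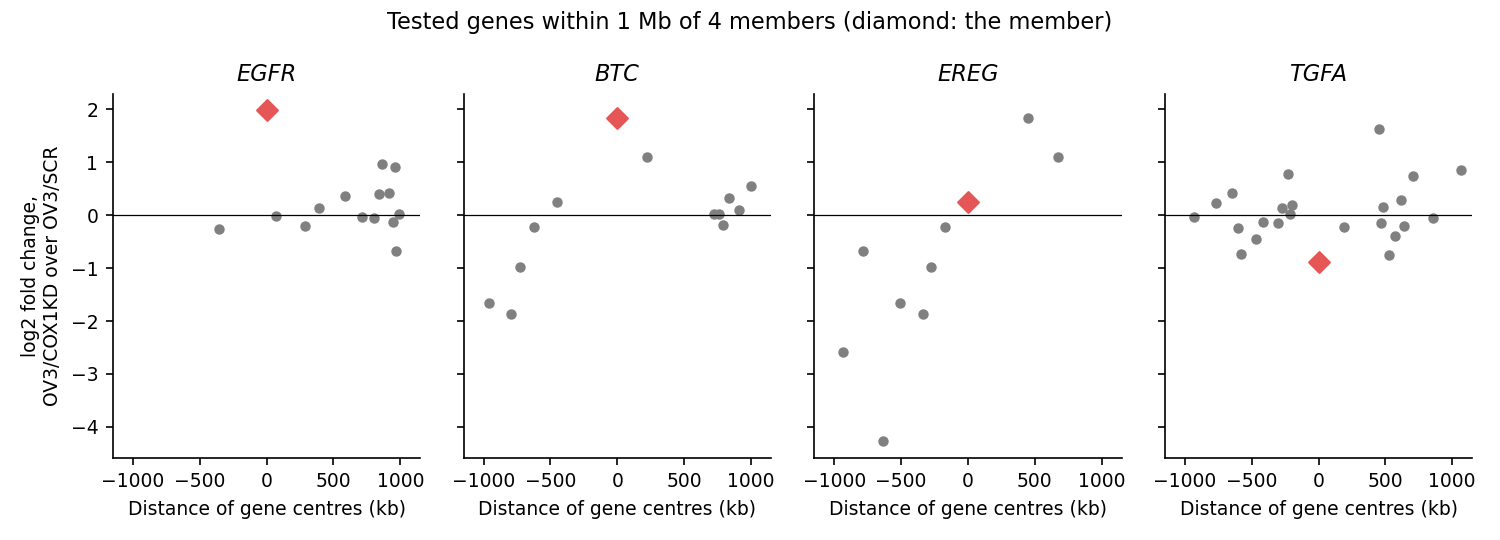
Log2 fold change of OV3/COX1KD over OV3/SCR for the tested genes within 1 Mb of *EGFR*, *BTC*, *EREG* and *TGFA*, against the distance between gene centers in kb (gray points, with the member as a diamond at 0). Neighbors of *EGFR* and *TGFA* scatter about 0, with medians of 0.011 and -0.024, while the stretch around *EREG* and *BTC* holds values from -4.27 to 1.84.

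The wider pathway was described by lists, read against the 47.9% of all tested genes that were called. Of the 11 genes for ligand shedding, 10 were tested, 2 rose (*ADAM15* and *ADAM17*, the main sheddase of TGFA, AREG and HBEGF), 2 fell and 6 were not called, and *ADAM12* was not tested. *ADAM17* rose by 0.28 on the log2 scale (SE 0.037, FDR = 2.92e-06), while *ADAM10*, the main sheddase of EGF and BTC, had 0.058 (FDR = 0.112). *ADAM8*, another protease of this family, fell by 0.78 on the log2 scale (FDR = 4.36e-07). *RHBDF1*, whose product iRhom1 helps ADAM17 to the cell surface, fell by 0.32 on the log2 scale (FDR = 4.61e-06). The median of the list was 0.015.

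All 12 receptor inhibitors, phosphatases and enzymes of receptor ubiquitination were tested, of which 7 rose, 3 fell and 2 were not called, with a median log2 fold change of 0.22. *LRIG1*, a membrane protein that restrains ERBB receptors, rose by 0.97 on the log2 scale (SE 0.043, FDR = 2.20e-13). *CBLB*, a ubiquitin ligase of activated receptors, rose by 0.54 (SE 0.034, FDR = 4.39e-11), while *CBL* itself was not called, with a log2 fold change of -0.073 (FDR = 0.215). *PTPN1*, a phosphatase that acts on EGFR, fell by 0.51 on the log2 scale (FDR = 9.72e-10). *ERRFI1*, an inducible inhibitor of the EGFR kinase, was the other gene not called, with a log2 fold change of -0.079 (FDR = 0.102).

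Of the 5 membrane partners, 4 were tested and all 4 were called, 2 in each direction. *CD9*, a tetraspanin that associates with the HBEGF precursor, rose by 0.61 on the log2 scale (FDR = 9.12e-13), and *CD82*, a tetraspanin that associates with EGFR, by 0.95 (FDR = 7.52e-13). *CD44*, which can present HBEGF, fell by 1.01 (FDR = 6.28e-13), and *MUC1* fell by 0.54 (FDR = 3.67e-06). *MUC4* was not tested. The median of the list was 0.035.

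Among the 30 adaptors and transducers, 29 were tested, 13 rose, 8 fell and 8 were not called, with a median log2 fold change of 0.11. *GRB7*, an adaptor that binds ERBB2 and the highest of the tested genes within 1 Mb of it, rose by 0.76 on the log2 scale (SE 0.061, FDR = 1.86e-09). *PIK3R3*, a regulatory subunit of PI3K, rose by 0.54 (FDR = 1.18e-08). *PLCG1*, a phospholipase recruited by EGFR, fell by 0.52 (FDR = 2.40e-09). *STAT5A* was below the filter.

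Of 10 genes often read as output of MAPK signaling, all tested, 3 fell, 1 rose and 6 were not called, with a median log2 fold change of -0.30. The cyclin D1 gene *CCND1* had a log2 fold change of -1.52 (FDR = 7.15e-17), the MAPK phosphatase gene *DUSP4* of -1.37 (FDR = 1.79e-09) and the receptor gene *EPHA2* of -0.80 (FDR = 8.43e-13), and *ETV4*, a transcription factor gene, rose by 0.57 (FDR = 8.01e-08). *DUSP6*, a phosphatase gene that ERK signaling induces, had a log2 fold change of 0.15 (FDR = 0.303). MAPK activity itself was not measured in these libraries.

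**Figure D5:**
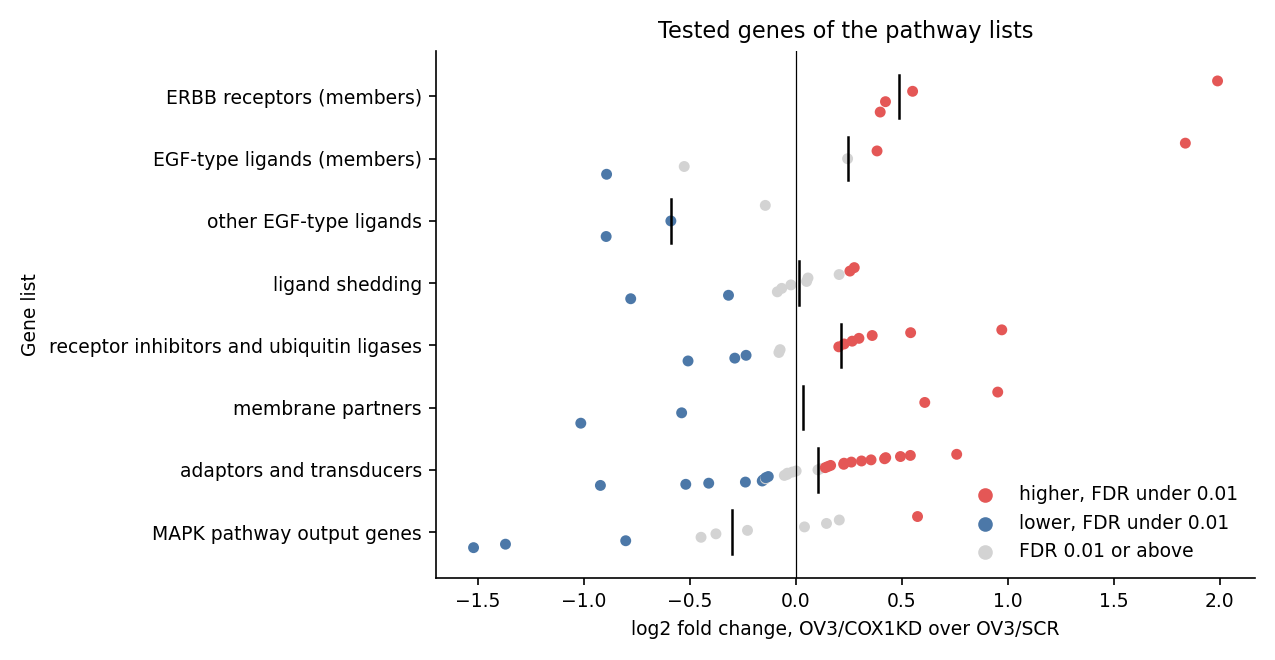
Log2 fold change of OV3/COX1KD over OV3/SCR for every tested gene of the 8 lists, red or blue where the FDR was under 0.01 and gray otherwise, with a black bar at the median of each list. The receptor list has all 4 genes to the right of 0 and a median of 0.49, while the list of MAPK output genes has a median of -0.30.

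For each tested member, the gene with the nearest profile of centered log2 CPM over the 6 libraries, among genes whose log2 CPM averaged 1 or more, is given as a description. The 6 libraries come from 2 cell lines, so a gene with an equal fold change lies near. The nearest gene to *EGFR* was *CPM*, which encodes carboxypeptidase M (log2 fold change 2.03, distance 0.152), and to *BTC* it was *VSTM2L* (1.85, distance 0.0610). *NID2* was nearest to *TGFA* (-0.88, distance 0.0639), *PMS2* to *ERBB2* (0.41), *TRIM24* to *ERBB3* (0.55), *CDC42BPA* to *ERBB4* (0.43), *OGDH* to *NRG1* (0.37), *L3MBTL3* to *EREG* (0.27) and *UBAP1L* to *HBEGF* (-0.62).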

How the data were processed

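RNA was sequenced from 3 OV3/SCR and 3 OV3/COX1KD libraries. The values deposited by the authors are raw counts per gene, made with HTSeq from TopHat2 alignments to hg19 and not normalized. The annotation release and the strand setting of the counting are not given in the sources used here. Groups and replicate numbers were taken from the labels.

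Counts were analyzed in R 4.3.3 with edgeR 4.0.16 (filterByExpr, TMM, glmQLFit and glmQLFTest with the cell line as the only factor, Benjamini-Hochberg adjustment over 17309 genes, call at an FDR under 0.01). The SE is the size of the log2 fold change divided by the square root of F. The common dispersion was 0.00103. Libraries within a cell line differed beyond sampling noise (chi-square over its degrees of freedom 1.82 to 6.40), so none was a copy of another. Positions and exon lengths came from GENCODE 44 on GRCh37 (33556 of 34811 genes matched), and promoter windows from RefSeq on GRCh38.p14.

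The members and lists were chosen with earlier results of these data known. List genes were named where the FDR was under 0.01 and the log2 fold change beyond 0.5, the other ligands were all named, and the other genes named (*ADAM10*, *ADAM15*, *ADAM17*, *RHBDF1*, *CBL*, *ERRFI1*, *DUSP6* and neighbors) were chosen after their values were seen. On simulated data for this comparison (17309 genes, 200 changed), 79 of 79 genes with a simulated log2 change of 1.5 were called, and 59 of 69 with one of 0.5, counting genes whose log2 CPM averaged 1 or more, and 5 calls were false. In the data a far larger share was called (47.9%), and the simulated spread between libraries depended on the level of a gene alone. The simulation therefore does not measure how many calls in these data were missed or false. Alternatives were RLE and total count scaling, other filters, DESeq2 1.42.0, the replicate number as a block and leaving out each library. A gene of the adaptor list that met the rule is not reported here by name.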

Additional observations from a re-analysis of the deposited data

How the results depend on the processing

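The number of members called at an FDR under 0.01 was 7 or 8 under each of the 12 alternatives, and *EGFR* and *BTC* exceeded 2.5-fold under all 12. Leaving out each library in turn gave 7 to 8 called members and 7124 to 8989 called genes. Over the 12 alternatives the log2 fold change ranged from 1.91 to 2.07 for *EGFR*, 1.76 to 1.86 for *BTC*, 0.32 to 0.43 for *ERBB2*, 0.47 to 0.59 for *ERBB3*, 0.35 to 0.52 for *ERBB4*, 0.31 to 0.43 for *NRG1* and -0.97 to -0.85 for *TGFA*. Only *HBEGF* changed its call among the 29 genes followed through these alternatives (344 of 348 values kept direction and call, none reversed): it was called with total count scaling (-0.60, FDR = 0.00690), with no filter (-0.50, FDR = 0.00202), with the replicate number as a block (-0.54, FDR = 0.00892) and without OV3/COX1KD replicate 2 (-0.84, FDR = 6.41e-06), its edgeR and DESeq2 FDR ranged from 6.41e-06 to 0.113, and the cause was not tested.

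The replicate block gave 8 called members, 2 beyond 2.5-fold, 8233 called genes and 44 called genes of the pathway lists, against 45 without it. The deviations of same-numbered libraries from their means correlated by 0.0045 to 0.042 across genes, and those of differently numbered libraries by -0.027 to 0.018. The labels do not say whether a number marks a shared passage or preparation, so the block is given here alone. Apart from *HBEGF*, the block changed no call of the genes followed.

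Lengths of canonical transcripts, an alternative added after seeing the data, gave *EGFR* 19.0% of the receptors in OV3/SCR and 39.8% in OV3/COX1KD, and *BTC* 39.7% and 75.7% of the 11 ligands. With 2 Mb in place of 1 Mb, the median log2 fold change of neighbors was -0.0073 for *ERBB3*, 0.049 for *ERBB4* and -0.030 for *EREG*. *EPGN*, near the floor, could not be resolved at this depth, and for *AREG* the near-identical copy is a further limit that depth does not address.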
